A study of Homo sapiens with 12 samples.

Results

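The 35 genes described here encode proteins of homologous recombination and of the Fanconi anaemia pathway of DNA crosslink repair. They are listed by name, with no measured value in the rule, although the list was drawn up with earlier results of these data known, and all 35 were among the 58735 genes of the expression table. They were measured by bulk RNA sequencing in 2 established human cell lines of oesophageal squamous cell carcinoma. In KYSE180, native control cells were compared with cells that overexpress CDCA7. In KYSE150, native control cells were compared with cells that carry a knockdown hairpin for CDCA7, labelled shCDCA7. Each of the 4 groups holds 3 libraries. The controls are labelled as native or wild type cells, with no empty vector or non-targeting hairpin named, and the labels name neither the number of clones nor the vector. No treatment or time point is given for any group. CDCA7, a zinc finger protein, recruits the remodelling ATPase HELLS to chromatin.

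Homologous recombination repairs a broken chromosome by copying the intact sister. The kinases ATM and ATR signal the break, nucleases resect its ends, BRCA1, PALB2 and BRCA2 prepare the resected strand, XRCC2, XRCC3 and RAD54 proteins help it to invade the sister, and helicases and nucleases take the joined molecules apart. At a DNA crosslink the Fanconi core complex, with the ubiquitin-conjugating enzyme UBE2T, attaches ubiquitin to FANCD2 and FANCI, after which recombination proteins complete the repair. Many of these genes are transcribed most in S phase under E2F factors, and inherited loss of several of them predisposes to cancer.

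Libraries held between 16.3 M and 19.6 M reads in genes. CDCA7 itself was at 24, 18.2 and 17.3 FPKM (fragments scaled to gene length and library size) in the KYSE180 controls against 44.6, 59.1 and 57.9 FPKM with overexpression. In KYSE150 it was at 27.4, 25.6 and 25.6 FPKM in the controls against 9.24, 10.1 and 8.83 FPKM with shCDCA7, so every library went with its label. HELLS was called lower with overexpression (log2 change -0.50 ± 0.13 SE, adjusted p = 0.048 by limma) and was not called with shCDCA7 (-0.16 ± 0.16, adjusted p = 0.507). All 8 squamous epithelial markers were above 1 FPKM in KYSE180 and 7 of 8 in KYSE150, where SOX2 was the exception. Their summed level was 1908 to 3453 FPKM in the KYSE180 controls and 3860 to 4467 FPKM with overexpression, and 423 to 440 FPKM in the KYSE150 controls and 613 to 711 FPKM with shCDCA7. The part of this shift in the repair genes' levels was not tested. The summed level of 7 fibroblast markers reached at most 5.51 FPKM, that of 6 leukocyte markers 1.92 FPKM and that of 5 endothelial markers 1.31 FPKM. Replicate 2 of shCDCA7 stood apart: mitochondrial genes took 11.2% of its reads, against 5.20% and 5.73% in the other shCDCA7 libraries. The mitochondrial share was also above the controls with both manipulations, without overlap: it was 4.03% to 4.15% in the KYSE150 controls, and in KYSE180 4.76% to 6.38% in the controls and 7.97% to 8.65% with overexpression. Its part in the repair genes' levels in KYSE180 was not tested. Because replicate 2 of shCDCA7 stood apart, the results in KYSE150 are given with and without that replicate. The labels do not say that replicates are separate cultures, so p-values measure only sample-to-sample spread, part or all of which may be technical. In bulk samples, fewer cells of a type or cell cycle phase and less RNA per cell cannot be told apart.

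The regions upstream of the genes were read from RefSeq (GRCh38.p14) as a description, with no test. Of the 35 genes, 31 had an entry, and FANCI, NBN, RAD54B and RMI2 had none. Windows of 250 bases before and 50 after each transcription start were searched on both strands for the E2F words TTTCCCGC, TTTCGCGC, TTTGCCGC and TTTGGCGC, for the NF-Y word CCAAT and for the cell cycle word TTTGAA. No word contains another. An E2F word was in the windows of 7 of the 31 genes (22.6%: EXO1, FANCA, FANCC, FANCD2, MSH6, RMI1 and XRCC2), against 3.99% of 27305 genes. CCAAT was in 16 (51.6%, against 39.7%) and TTTGAA in 5 (16.1%, against 18.2%). These matches are descriptions of the letters and not binding sites. Written 5′ to 3′ on the gene's own strand, the sequences are the last 150 bases before the start and the first 30 after it. They are given for XRCC2, FANCF and BRIP1, which were called in one of the lines, and for FANCD2 and MSH6, picked by name. FANCD2 and MSH6 are among the 7 genes with an E2F word, of which EXO1, FANCA, FANCC and RMI1 are not printed. Capitals mark the E2F words and the CCAAT words, on either strand.
XRCC2 (chr7:152676112-152676291, minus strand): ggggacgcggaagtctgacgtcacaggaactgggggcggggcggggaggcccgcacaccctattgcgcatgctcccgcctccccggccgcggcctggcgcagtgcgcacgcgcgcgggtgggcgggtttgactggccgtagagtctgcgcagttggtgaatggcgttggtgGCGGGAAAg
FANCD2 (chr3:10026287-10026466, plus strand): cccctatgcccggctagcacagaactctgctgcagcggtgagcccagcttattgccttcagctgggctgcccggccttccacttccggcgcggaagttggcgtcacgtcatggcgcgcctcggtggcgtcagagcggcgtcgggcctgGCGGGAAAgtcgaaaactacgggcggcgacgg
MSH6 (chr2:47782995-47783174, plus strand): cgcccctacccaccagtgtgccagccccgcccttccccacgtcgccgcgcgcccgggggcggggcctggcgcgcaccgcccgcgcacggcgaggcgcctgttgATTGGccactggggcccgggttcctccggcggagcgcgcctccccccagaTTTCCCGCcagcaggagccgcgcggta
FANCF (chr11:22625794-22625973, minus strand): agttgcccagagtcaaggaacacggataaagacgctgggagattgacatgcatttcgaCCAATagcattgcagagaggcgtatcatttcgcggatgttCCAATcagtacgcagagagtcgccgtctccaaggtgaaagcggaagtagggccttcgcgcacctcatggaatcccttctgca
BRIP1 (chr17:61863499-61863678, minus strand): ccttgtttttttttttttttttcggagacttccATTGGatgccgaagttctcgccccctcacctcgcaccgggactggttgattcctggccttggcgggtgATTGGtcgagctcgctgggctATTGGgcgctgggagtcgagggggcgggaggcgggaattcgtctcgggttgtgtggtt
Counted with the first transcribed base as 0, the E2F word lies at 21 to 28 in XRCC2, at -2 to 5 in FANCD2 and at 3 to 10 in MSH6. FANCF and BRIP1 have none there: FANCF has a CCAAT word starting at -92 and at -52, and BRIP1 has one starting at -117, -49 and -28. The same stretch was also taken for RAD50, which was called in KYSE150, and for BRCA1 and BRCA2. These hold none of the words and are not printed. For MSH6 only the start with the words is printed, and the stretches of its other listed starts hold none.

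With CDCA7 overexpression in KYSE180, 1 of the 35 genes fell, the BRCA1-associated helicase BRIP1, and none rose. A gene was called when its adjusted p was under 0.05 (limma on log2(FPKM + 1), Benjamini-Hochberg over all genes tested). All 35 genes passed the filter on low reads in every comparison. Of all 15944 genes tested, 9.08% were called (4.65% higher and 4.43% lower), so the count among the 35 is no higher than the background. With an unadjusted p under 0.05 there were 12 of the 35, against 29.96% of all genes. Limma-voom on recovered reads called 0 higher and 4 lower, against 5.93% and 5.56% of all genes. The median log2 change of the 35 was -0.21, against -0.0049 over all genes tested, and 24 of 35 lay below 0, against 50.6% of all genes. In 10 genes all 3 overexpression libraries lay below all 3 controls (ATR, BARD1, BRCA1, BRCA2, BRIP1, FANCI, FANCL, PALB2, XRCC2 and XRCC3), against 17.4% of all genes, and in 2, CHEK2 and FANCE, they lay above, against 17.7%. The number called depended on single libraries: it was 5 without control replicate 3 and 0 without any one of the other 5 libraries, where between 1 and 2097 genes were called over all genes. Scaled to total reads the number was 6, against 7.70% of all genes, with the GC trend removed 4, against 4.71%, and without control replicate 3 the background was 7.08%. Control replicate 3 was the lowest of its group for 26 of the 35 genes, and overexpression replicate 1 was the lowest of its group for 25. These counts were not taken over all genes, so whether they are particular to the 35 was not tested.

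With shCDCA7 in KYSE150, 4 of the 35 genes fell: XRCC2, FANCF, RMI2 and RAD50. None rose. Over all 14342 genes tested, 19.9% were called (10.0% higher and 9.86% lower), so the count of lower genes is near the background. With an unadjusted p under 0.05 there were 11 of the 35, against 36.7% of all genes. Limma-voom called 0 higher and 6 lower, against 10.7% and 10.2% of all genes. Scaling to total reads moved the median of all genes by -0.16 and gave 14 lower genes, against 21.0% of all genes. The median log2 change of the 35 was -0.25, against 0.0020 over all genes, and 23 of 35 lay below 0, against 49.8%. In 12 genes all 3 shCDCA7 libraries lay below all 3 controls, against 22.5% of all genes, and in 3 (CHEK1, CHEK2 and UBE2T) they lay above, against 25.3%.

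Replicate 2 of shCDCA7 lay apart from the others in most of these genes. In 25 of the 35 genes replicates 1 and 3 both lay below all 3 controls, against 4979 of the 14215 genes tested without replicate 2. In 13 of the 25, replicate 2 was not below all controls, a count not taken over all genes. Without replicate 2, 21 genes were called lower, the 4 above among them, and 3 higher (CHEK1, FANCE and UBE2T), against 26.4% lower and 29.5% higher over all genes. With control replicate 1, 2 or 3 left out instead, 2, 1 and 2 genes were called lower, against 1.95%, 1.49% and 2.36% of all genes. Without shCDCA7 replicate 1 or 3 the numbers were 3 and 2, against 6.21% and 5.58%. Replicate 2 differed from the others along the base composition of the genes. Its log2(FPKM + 1) minus the mean of replicates 1 and 3 was above 0 in 22 of the 24 genes with a GC content under 45% and below 0 in 9 of the other 11. Across the 35 genes, Pearson's r of that difference with GC content was -0.78, and across 17079 genes it was -0.50, as descriptions over genes of the same libraries. The 35 genes have a median GC content of 41.4% and a median length of 6156 bases, against 48.6% and 4353 bases for all genes tested. What the base composition and the mitochondrial share of replicate 2 add to the changes was not tested beyond these values and the GC-adjusted fit: with the trend on GC content removed, 10 of the 35 genes were called lower, against 12.5% of all genes.

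**Figure D1:**
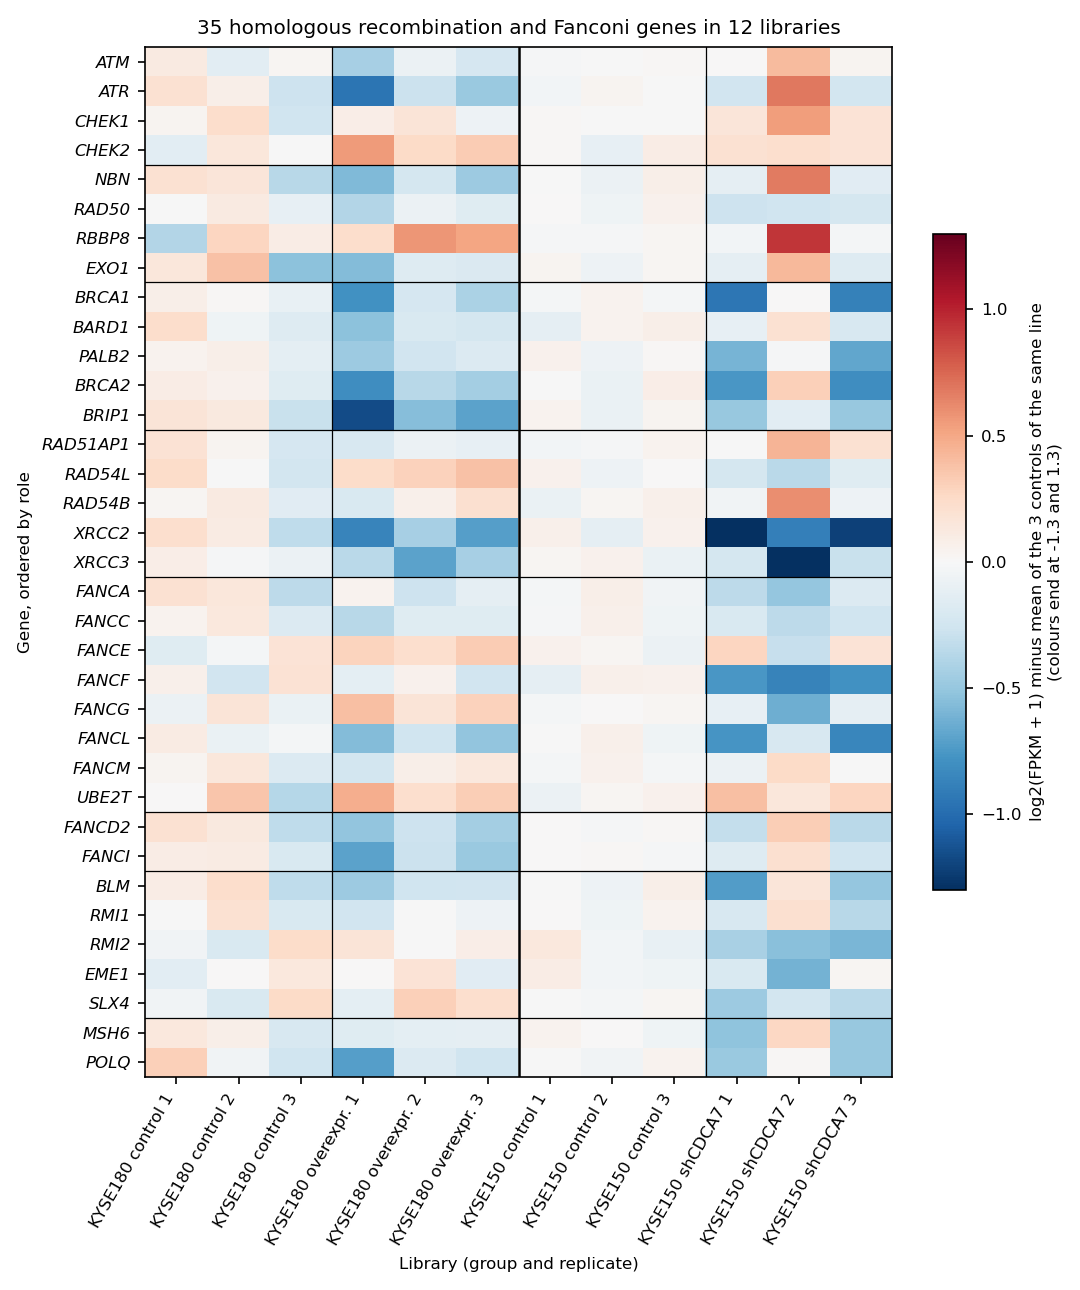
Difference of each gene (rows, ordered by role) from the mean of the 3 controls of its own line, on the log2(FPKM + 1) scale, in each of the 12 libraries (columns). Most rows are blue in shCDCA7 replicates 1 and 3, while replicate 2 is above all controls in 18 of the 35 genes, a count not taken over all genes.

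**Figure D2:**
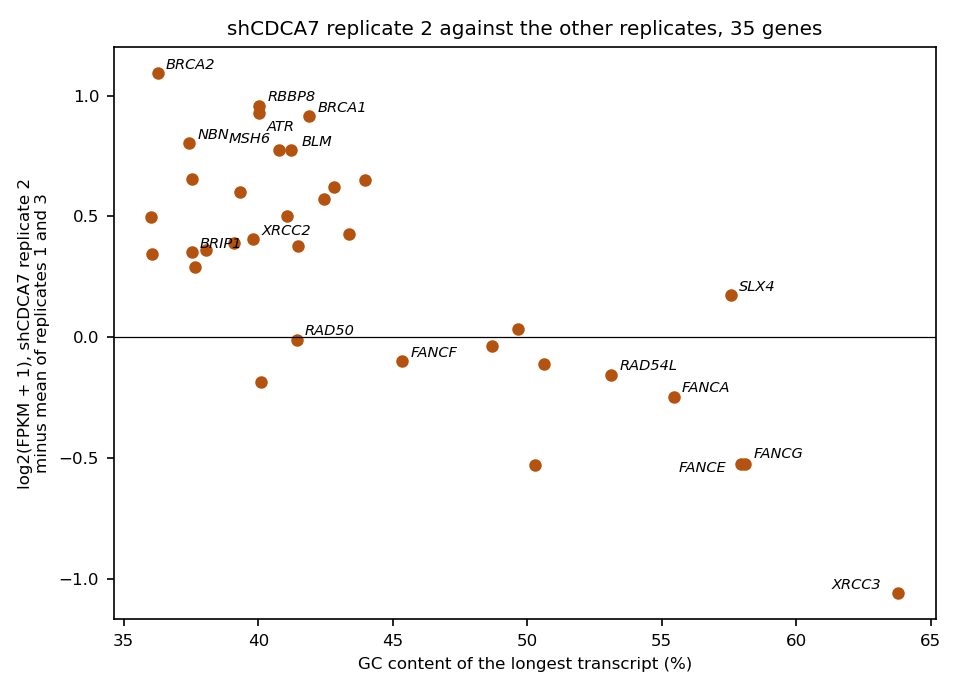
Level in shCDCA7 replicate 2 minus the mean of replicates 1 and 3, in log2(FPKM + 1) (vertical axis), against the GC content of the longest transcript of each gene in percent (horizontal axis). Each point is 1 of the 35 genes. The difference runs from 1.09 for BRCA2 to -1.06 for XRCC3.

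**Figure D3:**
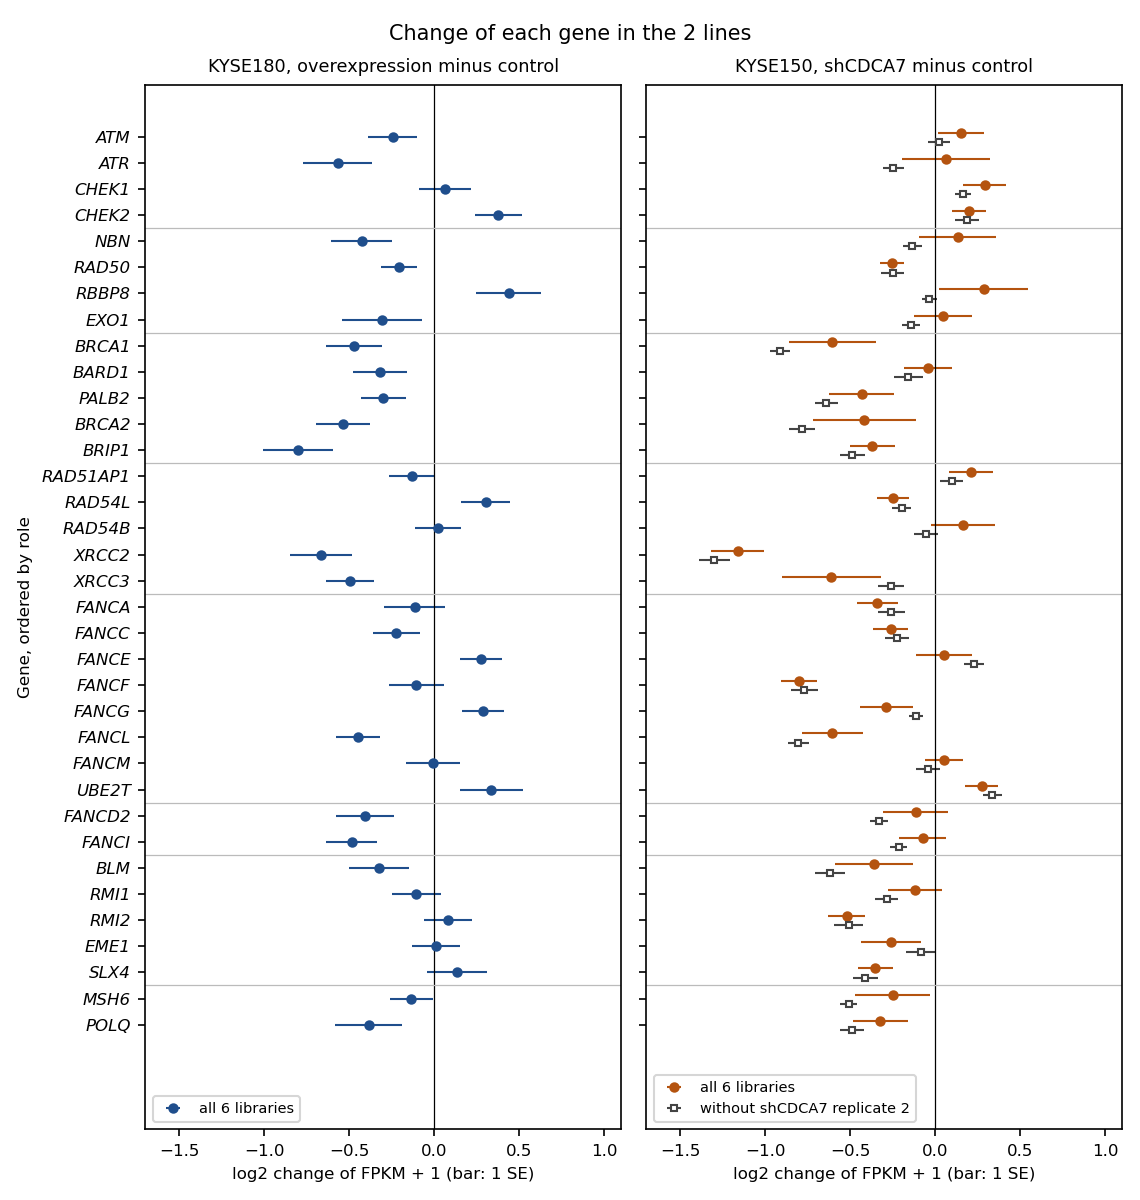
Log2 change of FPKM + 1 for each gene, with bars of 1 standard error: left, CDCA7 overexpression minus control in KYSE180; right, shCDCA7 minus control in KYSE150 with all 6 libraries (filled) and without shCDCA7 replicate 2 (open). XRCC2 lies far to the left in both lines, at -0.67 and -1.16, and the standard errors in KYSE150 shrink for most genes when replicate 2 is left out.

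Among the damage kinases and checkpoint genes (ATM, ATR, CHEK1 and CHEK2) none was called in either line. With overexpression the changes ran from -0.57 for ATR, the kinase of stalled forks, to 0.38 for CHEK2, the effector kinase of ATM. The 3 CHEK2 levels were 9.80, 7.77 and 8.26 FPKM against 5.70, 7.14 and 6.34 FPKM in the KYSE180 controls (adjusted p = 0.116 by limma). With shCDCA7 all 4 changes lay above 0, from 0.064 for ATR to 0.29 for CHEK1, the effector kinase of ATR, although with scaling to total reads ATM, ATR and CHEK2 lay below 0 (-0.057, -0.16 and -0.036). CHEK1 was at 10.99, 14.7 and 11.2 FPKM against 9.87, 9.74 and 9.74 FPKM in the KYSE150 controls. The groups did not overlap, and CHEK1 was called higher without replicate 2 (0.16 ± 0.046, adjusted p = 0.0199), as ATR was called lower (-0.25 ± 0.062, adjusted p = 0.0132).

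Of the 4 genes that process the broken ends, RAD50 was called in KYSE150. RAD50 (ENSG00000113522, chr5:132556019-132646344, plus strand, GRCh38) is the ATPase of the MRE11-RAD50-NBN complex. Its KYSE150 levels were 1.12, 1.03 and 1.19 FPKM in the controls and 0.751, 0.763 and 0.798 FPKM with shCDCA7. All 3 shCDCA7 libraries were below all controls, and replicate 2 lay between the others. The log2 change was -0.25 ± 0.069 (adjusted p = 0.0467 by limma), and across the 16 alternative settings and left-out libraries the adjusted p ran from 0.0135 to 0.279. It was lost without any 1 library other than shCDCA7 replicate 2 (adjusted p between 0.0959 and 0.174) and kept without that one (0.0163). In KYSE180 the change was -0.21 ± 0.11 (adjusted p = 0.234). RAD50 rests on few reads, 38 to 233 per library, and 79.7% of its exon bases also lie in exons of AC116366.3 on the same strand, a gene listed at no more than 0.032 FPKM in any library. The sources used here do not say how reads shared by the pair were counted, so the level of RAD50 is uncertain. The other 3 genes were not called. RBBP8, which encodes the resection factor CtIP, had the highest change of its group with overexpression (0.44 ± 0.19, adjusted p = 0.166), at 53.3, 68.0 and 65.2 FPKM against 34.7, 55.3 and 48.6 FPKM. In KYSE150 it was at 11.9, 24.1 and 11.9 FPKM against 12.1, 12.1 and 12.5 FPKM, a difference of 0.29 that lay in replicate 2 and was -0.033 without it. NBN, the third subunit of the RAD50 complex, had the lowest change with overexpression on the log2(FPKM + 1) scale (-0.43 ± 0.18, adjusted p = 0.157), although the ratio of the means was lower for RAD50 (0.656) than for NBN (0.721).

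All 5 genes of the BRCA complexes (BRCA1, BARD1, PALB2, BRCA2 and BRIP1) had changes below 0 in both lines, with medians of -0.47 in KYSE180 and -0.42 in KYSE150. BRIP1 (ENSG00000136492, chr17:61681266-61863521, minus strand) is a helicase that binds BRCA1 and is also known as FANCJ. It was at 5.57, 5.37 and 3.76 FPKM in the KYSE180 controls against 1.62, 2.99 and 2.61 FPKM with overexpression. The highest overexpression library was below the lowest control, and the ratio of the means was 0.491. The log2 change was -0.80 ± 0.20 (adjusted p = 0.0494 by limma). The call was lost without any 1 library other than control replicate 3 (adjusted p between 0.0702 and 0.171), so it rests on each of them. In KYSE150, BRIP1 was at 2.80, 2.48 and 2.79 FPKM in the controls against 1.63, 2.36 and 1.63 FPKM with shCDCA7. The groups did not overlap, and the change was -0.37 ± 0.13 (adjusted p = 0.0932), or -0.49 ± 0.075 without replicate 2 (adjusted p = 0.00149).

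BRCA1, BRCA2, FANCL, XRCC3 and CHEK1 are given by library because their values were seen to show the pattern of replicate 2 or of both lines. Other genes named without a call, apart from the highest and lowest of each role group, were also chosen after their values were seen. BRCA1, the ubiquitin ligase that promotes resection, was at 8.36, 8.89 and 8.41 FPKM in the KYSE150 controls against 3.97, 8.58 and 4.18 FPKM with shCDCA7. Replicates 1 and 3 were near 0.477 times the control mean, while replicate 2 was within the controls. The change was -0.61 ± 0.26 with all libraries (adjusted p = 0.141) and -0.91 ± 0.059 without replicate 2 (adjusted p = 4.86e-05). BRCA2, which prepares the resected strand for exchange, was at 3.75, 3.50 and 4.07 FPKM in the controls against 1.82, 4.91 and 1.72 FPKM with shCDCA7. Here replicate 2 lay above every control, and the change moved from -0.42 ± 0.30 (adjusted p = 0.361) to -0.78 ± 0.078 (adjusted p = 0.000243) without it. In KYSE180, BRCA1 was at 10.0, 9.60 and 8.78 FPKM in the controls against 5.06, 7.96 and 6.88 FPKM with overexpression. BRCA2 was at 3.29, 3.18 and 2.61 FPKM against 1.3, 2.13 and 1.96 FPKM. Neither pair of groups overlapped, and neither gene passed the threshold (adjusted p = 0.102 and 0.0708). PALB2, the bridge between BRCA1 and BRCA2, was called in KYSE150 without replicate 2 (-0.64 ± 0.069, adjusted p = 0.000325), and BARD1, the partner of BRCA1, was not (-0.16 ± 0.085, adjusted p = 0.152).

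**Figure D4:**
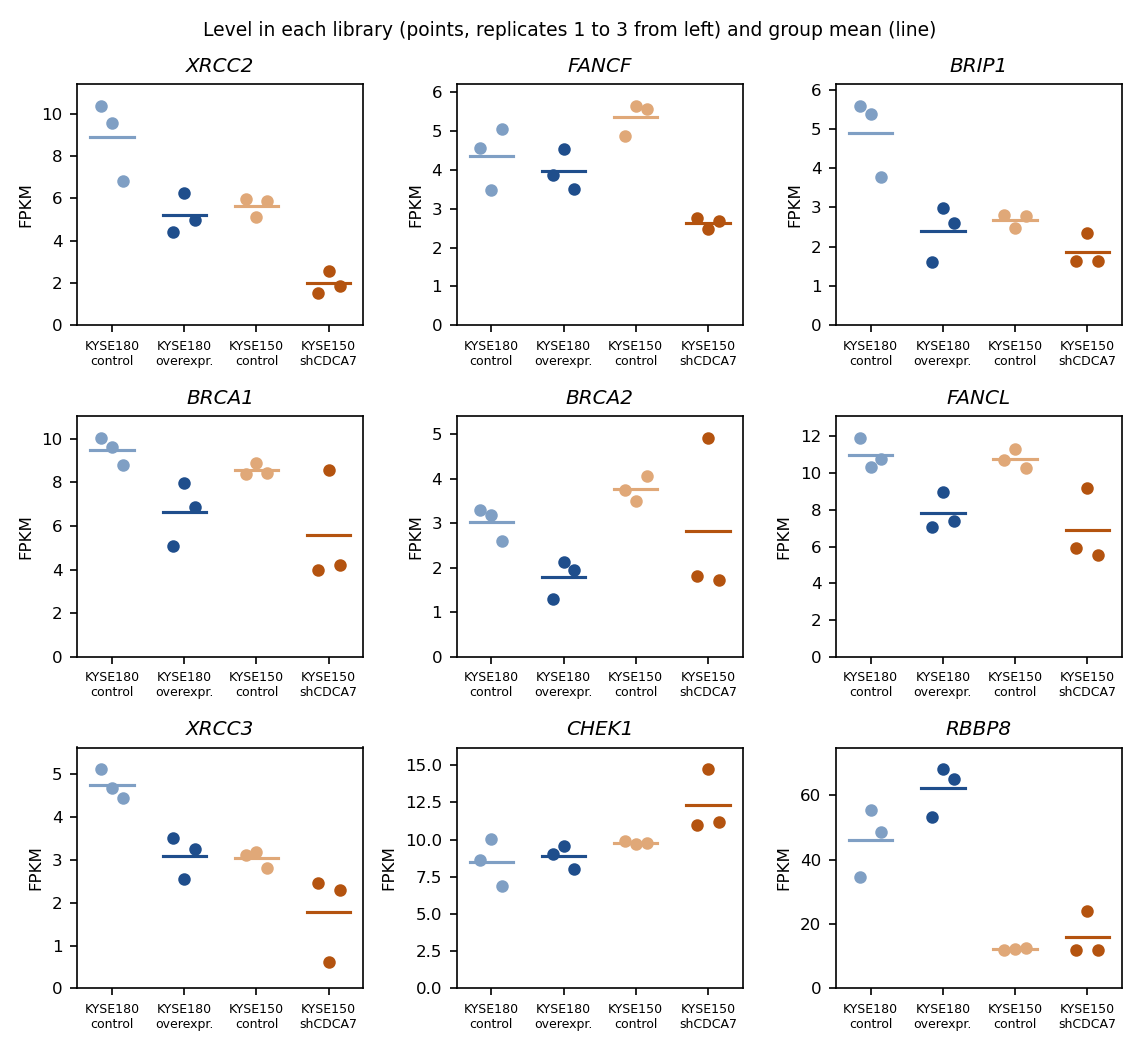
FPKM (vertical axes, from 0) of 9 of the genes in each library of the 4 groups; points are replicates 1 to 3 from left to right and lines are group means. XRCC2 and FANCF are low in all 3 shCDCA7 libraries, while in BRCA1, BRCA2 and FANCL replicates 1 and 3 lie well below replicate 2 and XRCC3 is lowest in replicate 2.

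Of the 5 strand exchange genes, XRCC2 showed the lowest change in both lines. XRCC2 (ENSG00000196584, chr7:152644779-152676165, minus strand) encodes a strand exchange cofactor, and its start carries the E2F word printed above. It was at 5.95, 5.10 and 5.88 FPKM in the KYSE150 controls against 1.54, 2.58 and 1.86 FPKM with shCDCA7. Every shCDCA7 library, replicate 2 included, was far below every control, and the ratio of the means was 0.353. The log2 change was -1.16 ± 0.15 (adjusted p = 0.00641 by limma), and XRCC2 stayed called in all 16 alternatives, with adjusted p between 6.4e-05 without replicate 2 and 0.0474 without control replicate 1. In KYSE180 it was at 10.3, 9.54 and 6.79 FPKM in the controls against 4.40, 6.23 and 4.97 FPKM with overexpression. Those groups did not overlap either, and the change of -0.67 ± 0.18 missed the threshold (adjusted p = 0.0592).

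XRCC3, another strand exchange cofactor, was at 3.12, 3.19 and 2.82 FPKM in the KYSE150 controls against 2.45, 0.623 and 2.30 FPKM with shCDCA7. It has the highest GC content of the 35 genes, 63.8%, and replicate 2 was its lowest library. Without that library the change was -0.26 ± 0.076 (adjusted p = 0.0236), against -0.61 ± 0.29 with it (adjusted p = 0.184). Exons of KLC1 on the opposite strand cover 76.7% of its exon bases, and KLC1 was at 2.11, 1.06 and 1.76 FPKM in the same 3 libraries against 2.29, 2.31 and 2.21 FPKM in the controls. Whether the counting used strand is not stated, so the 2 genes may share reads. In KYSE180, XRCC3 was at 5.12, 4.69 and 4.45 FPKM in the controls against 3.51, 2.55 and 3.25 FPKM with overexpression (-0.49 ± 0.14, adjusted p = 0.0648). RAD54L, a DNA motor protein, had the highest change of this group in KYSE180 (0.30 ± 0.15, adjusted p = 0.203), and RAD51AP1, which promotes strand pairing, in KYSE150 on the log2(FPKM + 1) scale (0.21 ± 0.13, adjusted p = 0.277), although the ratio of the means was higher for RAD54B (1.303) than for RAD51AP1 (1.176). RAD54B was at 0.757 to 1.94 FPKM across the libraries and shares 59.1% of its exon bases with FSBP on the same strand.

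Of the 8 genes of the Fanconi core complex and its ubiquitin-conjugating enzyme, FANCF was called in KYSE150 and none in KYSE180. FANCF (ENSG00000183161, chr11:22622890-22625841, minus strand) is an adaptor that holds the core complex together. It was at 4.86, 5.63 and 5.57 FPKM in the KYSE150 controls against 2.76, 2.48 and 2.68 FPKM with shCDCA7. The shCDCA7 libraries were alike and all below the controls, with a ratio of the means of 0.493. The log2 change was -0.80 ± 0.11 (adjusted p = 0.00642 by limma), and it was -0.77 ± 0.078 without replicate 2 (adjusted p = 0.00026). Only without control replicate 2 was the call lost (adjusted p = 0.0516). In KYSE180 the groups overlapped, at 4.55, 3.48 and 5.05 FPKM in the controls and 3.88, 4.54 and 3.49 FPKM with overexpression (-0.10 ± 0.16, adjusted p = 0.699).

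FANCL, the ubiquitin ligase of the core complex, was at 10.7, 11.3 and 10.3 FPKM in the KYSE150 controls against 5.92, 9.21 and 5.54 FPKM with shCDCA7. The groups did not overlap, and the change was -0.60 ± 0.18 (adjusted p = 0.0611), or -0.81 ± 0.061 without replicate 2 (adjusted p = 8.36e-05). In KYSE180, FANCL had the lowest change of the group (-0.45 ± 0.13, adjusted p = 0.0683), at 11.9, 10.3 and 10.8 FPKM in the controls and 7.08, 8.999 and 7.38 FPKM with overexpression. UBE2T, the ubiquitin-conjugating enzyme that works with FANCL, had the highest change of the group in both lines. It was at 21.4, 23.0 and 23.5 FPKM in the KYSE150 controls against 29.97, 25.3 and 27.7 FPKM with shCDCA7, a change of 0.27 ± 0.097 (adjusted p = 0.0925) that was 0.34 ± 0.056 without replicate 2 (adjusted p = 0.00226). In KYSE180 the change of UBE2T was 0.34 ± 0.19 (adjusted p = 0.262). The ligase and its partner enzyme lay on opposite sides of 0 in each line.

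FANCD2 and FANCI, the pair that receives the ubiquitin, were not called in either line. With overexpression their changes were -0.41 ± 0.17 (adjusted p = 0.156) and -0.49 ± 0.15 (adjusted p = 0.0801). FANCI was at 14.0, 14.1 and 11.3 FPKM in the KYSE180 controls against 7.69, 10.6 and 9.05 FPKM with overexpression, without overlap. In KYSE150 FANCD2 was at 7.82, 7.74 and 7.90 FPKM in the controls against 6.10, 10.0 and 5.92 FPKM with shCDCA7. Its libraries lay on both sides of the controls, and both genes were called lower without replicate 2 (FANCD2 -0.33 ± 0.053, adjusted p = 0.00178; FANCI -0.21 ± 0.049, adjusted p = 0.00851).

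Of the 5 genes that dissolve or cut joined DNA molecules, RMI2 was called in KYSE150. RMI2 (ENSG00000175643, chr16:11249619-11381662, plus strand) is a subunit of the complex of the BLM helicase, which separates joined molecules without a crossover. It was at 13.4, 11.8 and 11.2 FPKM in the KYSE150 controls against 8.78, 7.97 and 7.66 FPKM with shCDCA7. The groups did not overlap, and the ratio of the means was 0.671. The log2 change was -0.52 ± 0.11 (adjusted p = 0.0210 by limma), and it was lost without any 1 control library or shCDCA7 replicate 3 (adjusted p between 0.0672 and 0.112). Without replicate 2 it was -0.51 ± 0.086 (adjusted p = 0.00235). In KYSE180 the groups overlapped and the change was 0.082 ± 0.14 (adjusted p = 0.732). All 5 changes lay below 0 in KYSE150, with the one nearest 0 at -0.12 for RMI1, another subunit of the BLM complex, and without replicate 2 BLM was called lower (-0.62 ± 0.089, adjusted p = 0.00115). In KYSE180 the changes ran from -0.32 for BLM to 0.13 for SLX4, a scaffold of nucleases.

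The other 2 genes belong partly to other pathways: MSH6 recognises mismatches and POLQ joins resected ends through short homologies. Neither was called in either line with all libraries. MSH6 was at 12.9, 12.6 and 12.03 FPKM in the KYSE150 controls against 8.39, 15.3 and 8.595 FPKM with shCDCA7, so replicate 2 was above the controls and the others below. Without replicate 2 the change was -0.51 ± 0.051 (adjusted p = 0.000248). POLQ was called lower on the same terms (-0.49 ± 0.069, adjusted p = 0.00105). In KYSE180 the changes were -0.13 ± 0.12 for MSH6 (adjusted p = 0.506) and -0.39 ± 0.20 for POLQ (adjusted p = 0.230).

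The 2 lines share no libraries, and CDCA7 was raised in one and lowered in the other. Of the 35 genes, 18 had changes below 0 in both lines, against 31.9% of the 13377 genes tested in both, and 6 (CHEK1, CHEK2, FANCE, RAD54B, RBBP8 and UBE2T) had changes above 0 in both, of which CHEK1 and RAD54B in KYSE180 and CHEK2 and FANCE in KYSE150 lay below 0 with scaling to total reads (-0.048, -0.040, -0.036 and -0.18). In 4 genes, BRIP1, FANCL, XRCC2 and XRCC3, the manipulated libraries lay below all controls in both lines, against 8.05% of genes. A fit of all 12 libraries compared the change with overexpression with the change with shCDCA7. No gene of the 35 was called in that difference, against 5.57% of 17088 genes, by limma and by limma-voom alike. In the limma fit 5 of the 35 had an unadjusted p under 0.05, against 22.2% of all genes, and the smallest adjusted p was that of FANCF, 0.70 ± 0.19 (adjusted p = 0.0572). A missed threshold does not show that the 2 changes are alike. The same fit was then read by CDCA7 level, as the change from low to high CDCA7 in each line. With native controls, that level and the carrying of a construct cannot be told apart. On that reading 9 of the 35 genes differed between lines in the direction of lower in KYSE180 (against 14.3% of genes) and 1, CHEK2, in the other (against 14.0%). Without shCDCA7 replicate 2 the numbers were 15 and 3, against 17.9% and 18.1% of all genes. With each of the other libraries left out in turn they lay between 4 and 12 and between 0 and 2, against 10.2% to 16.4% and 10.2% to 15.5% of all genes. The widest was XRCC2, at -1.83 ± 0.25 (adjusted p = 0.000564): the change was -0.67 where CDCA7 was raised and -1.16 where it was lowered.

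The native controls of the lines also differed. Over all genes 58.0% were called between them, and line, culture and sequencing cannot be told apart there. Of the 35 genes, 10 were higher in KYSE180 (against 33.4% of genes) and 4 lower (against 24.6%). RBBP8 was at a mean of 46.2 ± 10.5 FPKM (SD, n = 3) in KYSE180 and 12.2 ± 0.217 FPKM in KYSE150, a log2 difference of 1.81 ± 0.24 (adjusted p = 6.37e-05 by limma). POLQ was at 10.4 ± 2.28 against 2.99 ± 0.120 FPKM (1.49 ± 0.19, adjusted p = 4.7e-05). FANCC, a core complex subunit, was among the 4 lower in KYSE180, at 2.45 ± 0.380 against 3.94 ± 0.211 FPKM (-0.52 ± 0.12, adjusted p = 0.00266). BRCA1, BRCA2 and FANCL were not called between the controls.

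Other genes of the same pathways were taken from lists made for this purpose. The list of further homologous recombination and Fanconi genes holds 58 names, some of them older names of the same gene. Of these names, 52 were in the expression table and 49 were tested. With overexpression 1 was called higher (WDR48, a cofactor of the deubiquitinase of FANCD2, 0.49 ± 0.12, adjusted p = 0.0486) and 3 lower. These were EME2, a nuclease subunit (-1.03 ± 0.11, adjusted p = 0.0086), BRCC3, a deubiquitinase in a BRCA1 complex (-0.76 ± 0.16, adjusted p = 0.0326), and FAAP100, a core complex subunit (-0.56 ± 0.13, adjusted p = 0.0416). The median over the 49 was -0.076. With shCDCA7, 2 were called higher and 5 lower, with a median of -0.040. Among the lower were GEN1, a nuclease that cuts joined molecules (-0.57 ± 0.088, adjusted p = 0.00948), ATRIP, the partner of ATR (-0.70 ± 0.11, adjusted p = 0.0101), and SWSAP1, a recombination cofactor (-1.03 ± 0.22, adjusted p = 0.0231). UIMC1 and PARPBP were the 2 called higher. Without replicate 2 the numbers were 8 higher and 20 lower of 49, against 29.5% and 26.4% of all genes. With all libraries, 4.65% of all genes were called higher and 4.43% lower with overexpression, and 10.0% and 9.86% with shCDCA7.

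Of 19 end joining genes tested, none was called with overexpression, and with shCDCA7 1 was higher (SHLD3) and 3 lower (XRCC1, SHLD1 and POLM), or 3 higher and 8 lower without replicate 2. For this list and the following ones, the shares of all genes called higher and lower were 4.65% and 4.43% with overexpression. They were 10.0% and 9.86% with shCDCA7, and 29.5% and 26.4% without replicate 2. None of 6 mismatch repair genes was called in either line by limma, where 1 had an unadjusted p under 0.05 in KYSE180 and 0 in KYSE150; without replicate 2, 4 of the 6 were called lower in KYSE150. A list of 23 replication genes holds fork proteins and also the cyclins CCNE1 and CCNE2, the factors E2F1 and E2F2, and nucleotide synthesis enzymes. Of the 23, 1 fell with overexpression (CCNE2, -0.86 ± 0.21, adjusted p = 0.0444) and 12 with shCDCA7, with medians of -0.35 and -0.45. TYMS, CCNE2 and E2F2 are among the 12, at -0.55, -0.62 and -0.68, and without replicate 2 the number was 21. Of 20 mitosis genes, 4 rose with overexpression and 10 with shCDCA7, with medians of 0.45 and 0.54, and KIF2C and PTTG1 rose in both. Without replicate 2 there were 15 higher and 3 lower mitosis genes. The part that a change in cell cycle phase has in the levels of the 35 repair genes was not tested.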

How the data were processed

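The submitters' processing notes name HISAT2 2.0.5 (an aligner), DESeq2 1.20.0 and the build mm10. That is a mouse build, whereas 58724 of the 58735 genes of the table match human GENCODE 29 (GRCh38) by identifier, start and end, and coordinates are given on that build. The counting tool and its strand setting are not given in the sources used here.

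The authors deposited a table of genes by libraries whose unit is not named, beside the gene length. The deposited values are FPKM: value times length comes out as whole reads in 100% of values above 0 (tolerance 0.01 reads). Depth was 16.3 M to 19.6 M reads per library. The effective library size is a median-of-ratios size factor times 17642232 reads.

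A gene entered a test if 3 or more libraries had 10 or more reads (scaled to a median-sized library) and the sum was 15 or more. Each line (6 libraries) was fitted with limma 3.58.1 (R 4.3.3) on log2(FPKM + 1) with an intensity trend, and p-values were adjusted by Benjamini-Hochberg over all genes tested. A fold change on this scale understates the change of low genes. The control lines and the differences between lines came from 1 fit of all 12 libraries. Alternatives were a pseudocount of 0.1, no filter, at least 50 reads, 2 other scalings, limma-voom on recovered reads, the replicate block, removal of a GC trend, leaving out each library and a threshold of 0.01.

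The 35 genes and the further lists were chosen with earlier results of these data known. Every gene called in a line is given by library, other genes by counts and by value where highest or lowest of their role group, and at most 3 called genes per direction from each further list; exceptions are named in the text as chosen after their values were seen. No pairing of the libraries by replicate number was seen, although the labels do not say whether same-numbered libraries were prepared together.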

Additional observations from a re-analysis of the deposited data

Results flagged for a closer look

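Of the 35 genes, 10 had a change from low to high CDCA7 (on the log2(FPKM + 1) scale) that differed between KYSE180 and KYSE150 by limma with an adjusted p under 0.05. The difference was -1.83 for XRCC2, -1.17 for BRIP1, -1.10 for XRCC3, -1.08 for BRCA1, -1.05 for FANCL, -0.91 for FANCF, -0.73 for PALB2, -0.48 for FANCC and -0.46 for RAD50. It was 0.58 for CHEK2. The difference equals the change with overexpression plus the change with shCDCA7, so a change in 1 line alone can carry it. For FANCF those changes were -0.10 ± 0.16 in KYSE180 and -0.80 ± 0.11 in KYSE150. Over all 17088 genes 28.4% were called in this difference, and 10 of 35 genes is near that share. Line and batch cannot be told apart in it. Nor can the CDCA7 level and the carrying of a construct, since the controls are labelled as native cells.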

How the results depend on the processing

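No alternative moved the median change of the 35 genes across 0 in either line. The number called lower in KYSE180 (1) was 0 at adjusted p under 0.01, with no filter and with the replicate block, 2 with the upper quartile, 3 in 1 fit of all 12 libraries (with 1 higher), 4 with at least 50 reads, limma-voom or the GC trend removed, 6 scaled to total reads, and 0 to 5 with 1 library left out. The number over all genes (1447) was 62 at 0.01, 3 unfiltered, 2893 in the 12-library fit, 603 with the block, and 1 to 2317 with 1 library left out. Of all genes, the share called lower was 0.13% at 0.01, 0.0032% unfiltered and 1.74% with the block. It was 5.51% with the upper quartile, 8.92% in the 12-library fit (8.01% higher) and 5.87% with at least 50 reads. It was 5.56% with limma-voom, 4.71% with the GC trend removed, 7.70% scaled to total reads, and 0% to 7.25% with 1 library left out.

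In KYSE150 the number called lower (4) was 2 at 0.01 and with the block, 7 with the upper quartile, 10 with the GC trend removed, 14 scaled to total reads, and 1 to 21 with 1 library left out (higher: 0 to 3). Of all genes, the share called lower was 2.66% at 0.01, 3.61% with the block and 12.97% with the upper quartile. That share was 12.5% with the GC trend removed, 21.0% scaled to total reads, and 1.49% to 26.4% with 1 library left out (higher: 1.44% to 29.5%). The number over all genes in both directions (2854) was 785 at 0.01, 1554 unfiltered, 1001 with the block and 410 to 7948 with 1 library left out. Same-numbered libraries of a line correlated between -0.076 and 0.066, and differently numbered ones between -0.098 and 0.12, so no pairing by number was seen. With 3 libraries per group these values cannot show whether same-numbered libraries were prepared together. The block's fewer calls are no measure of effect size.

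Between the controls (10 higher, 4 lower) there were 5 and 2 at 0.01, and 6 to 11 and 3 to 4 with 1 library left out. Of all genes, 26.1% and 18.5% were called there at 0.01, and 29.4% to 32.6% and 20.95% to 23.9% with 1 library left out. In the difference of the manipulations (0 higher), 1 was called with at least 50 reads, scaled to total reads or with the GC trend removed, and 0 to 2 with 1 library left out, where the median (0.047) ran from -0.051 to 0.12. The shares of all genes called higher were 3.53%, 3.75% and 2.89% in those settings, and 0.92% to 4.78% with 1 library left out. In the CDCA7 effect (1 higher, 9 lower), 0 and 4 were called at 0.01, and 1 and 4 unfiltered. Of all genes, 6.964% and 6.999% were called there at 0.01, and 5.479% and 5.51% unfiltered. Scaled to total reads the numbers were 0 and 19, against 7.145% and 25.55% of all genes (median -0.67, against -0.21 over all genes). With the upper quartile they were 1 and 13, against 11.8% and 16.85%. With the GC trend removed they were 2 and 13, against 15.86% and 14.27%. With 1 library left out they were 0 to 3 and 4 to 15, against 10.18% to 18.12% and 10.23% to 17.87%.

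Some genes that were not called turned direction. Scaled to total reads these were CHEK1 (-0.048), RAD54B (-0.040), RMI2 (-0.037) and EME1 (-0.099; upper quartile -0.029) in KYSE180. In KYSE150 they were ATM (-0.057), ATR (-0.16), CHEK2 (-0.036), NBN (-0.12), EXO1 (-0.20), RAD51AP1 (-0.040), FANCE (-0.18) and FANCM (-0.11). With the upper quartile they were ATR (-0.015), EXO1 (-0.040), FANCE (-0.030) and FANCM (-0.0037), and with the GC trend removed ATM (-0.041), ATR (-0.11), NBN (-0.088), EXO1 (-0.090), RAD51AP1 (-0.034), RAD54B (-0.055) and FANCM (-0.16). With 1 library left out the ranges crossed 0 in KYSE150 for ATR (-0.25 to 0.22), BARD1 (-0.16 to 0.045), EXO1 (-0.14 to 0.15), FANCD2 (-0.33 to 0.0036), FANCE (-0.058 to 0.23), FANCI (-0.21 to 0.023), FANCM (-0.044 to 0.12), NBN (-0.13 to 0.28), RAD54B (-0.053 to 0.28), RBBP8 (-0.033 to 0.45) and RMI1 (-0.28 to 0.0034). In KYSE180 they did for CHEK1 (-0.063 to 0.18), EME1 (-0.073 to 0.089), FANCM (-0.096 to 0.11), RAD54B (-0.069 to 0.13) and RMI2 (-0.017 to 0.20). The causes were not tested.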
